A study of Rattus norvegicus with 12 samples.

Results

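Renal cortex from rats dosed with tert-butyl alcohol (TBA) was compared with renal cortex from vehicle rats, all killed under CO2-O2, by taking the 3 arrays labelled TBA and the 3 labelled vehicle under that gas from the 12 arrays of the series. The animals were male Sprague-Dawley rats, 5 weeks old at purchase. Dosing lasted 4 weeks, with water for vehicle rats and 1000 mg/kg of TBA each day for treated rats. All 6 rats were bled 24 h after the last dose while breathing CO2 and O2 at 4:1, so this gas was common to both groups. The other 6 rats, 3 vehicle and 3 TBA, had the same dosing but were bled under isoflurane. Total RNA from the cortex was hybridised to one-colour arrays, 1 rat per array, and the labels call the 3 arrays of a group biological replicates. The 3 vehicle arrays and TBA rat 3 lay on slide 1 and were scanned on 1 day. TBA rats 1 and 2 lay on slide 2, with the vehicle isoflurane arrays, and were scanned on another day. Rats are numbered here as in their scanner files.

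TBA is a branched alcohol used as a solvent, and it is formed in the body from the fuel ethers MTBE and ETBE. In male rats it is known for effects on the kidney, where it can bind alpha-2u-globulin, a protein made mainly in the male liver, filtered at the glomerulus and taken up by proximal tubule cells. The cortex holds glomeruli and mostly proximal tubule, the segment that reclaims filtered sugar, amino acids and lactate and that makes glucose and ammonia from glutamine.

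Values are log2 signals of a probe minus the 75th percentile of its array, differences are TBA minus vehicle on that log2 scale with the standard error (SE) of the limma fit, and n = 3 rats per group. A value below 0 is a signal under that percentile, and values of different probes are not levels that can be compared. A feature is a gene symbol, or an accession where no symbol was matched. It counts as changed, and "rose" or "fell" is written, where its limma adjusted p (Benjamini-Hochberg) was under 0.05. Of 29376 features tested, 44 changed (0.15%), of which 38 rose (0.129%) and 6 fell (0.0204%). A symbol was known for 26 of the 44, and 9 changed at least 2-fold, a size that 1.49% of all features reached. An unadjusted p under 0.05 was reached by 14.4% of features, 8.77% higher and 5.61% lower. In each of the 44 all TBA arrays lay on one side of all vehicle arrays, as they did in 21.1% of all features, and all 44 were well above background on the 6 arrays. The median difference over all features was 0.01. All 13 proximal tubule S1-S2 markers and all 10 podocyte markers were well above background on the 6 arrays. Between 63.6% and 68.7% of probes were well above background on these arrays, and arrays correlated at 0.991 to 0.994 within a group and 0.988 to 0.991 between the groups.

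A pair of neighbouring claudin genes, Cldn24 and Cldn22, rose. Claudins are the membrane proteins that seal and set the permeability of tight junctions. The signal of Cldn24 was -4.56, -4.80 and -4.64 in vehicle rats 1 to 3 and -1.74, -2.18 and -2.10 in TBA rats 1 to 3. The TBA mean was 6.32-fold the vehicle mean, a difference of 2.66 ± 0.27 (limma adjusted p = 0.0112). Cldn22 read -4.50, -4.42 and -4.31 in vehicle rats and -1.95, -2.21 and -2.33 in TBA rats, a difference of 2.25 ± 0.23 (limma adjusted p = 0.0112). The lowest TBA rat was well clear of the highest vehicle rat in both genes, and a second Cldn22 probe gave 1.89. The size depended on the background correction for these dim probes, and with normexp correction Cldn24 gave 1.41 and Cldn22 1.24, both still passing. Each of these 2 calls held in 20 of 27 refits run with other settings or with an array left out. Neither gene passed when a CO2-O2 array other than TBA rat 3 was left out. Wwc2, the gene next to this pair in the RefSeq annotation of GRCr8, gave 0.07 ± 0.08. Of 17 claudins tested, 2 rose and none fell, where 0.129% and 0.0204% of all features did, and the median over the list was 0.01. The claudins of the thick ascending limb Cldn10 and Cldn16 gave -0.62 ± 0.11 and -0.32 ± 0.14 and did not pass.

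**Figure D1:**
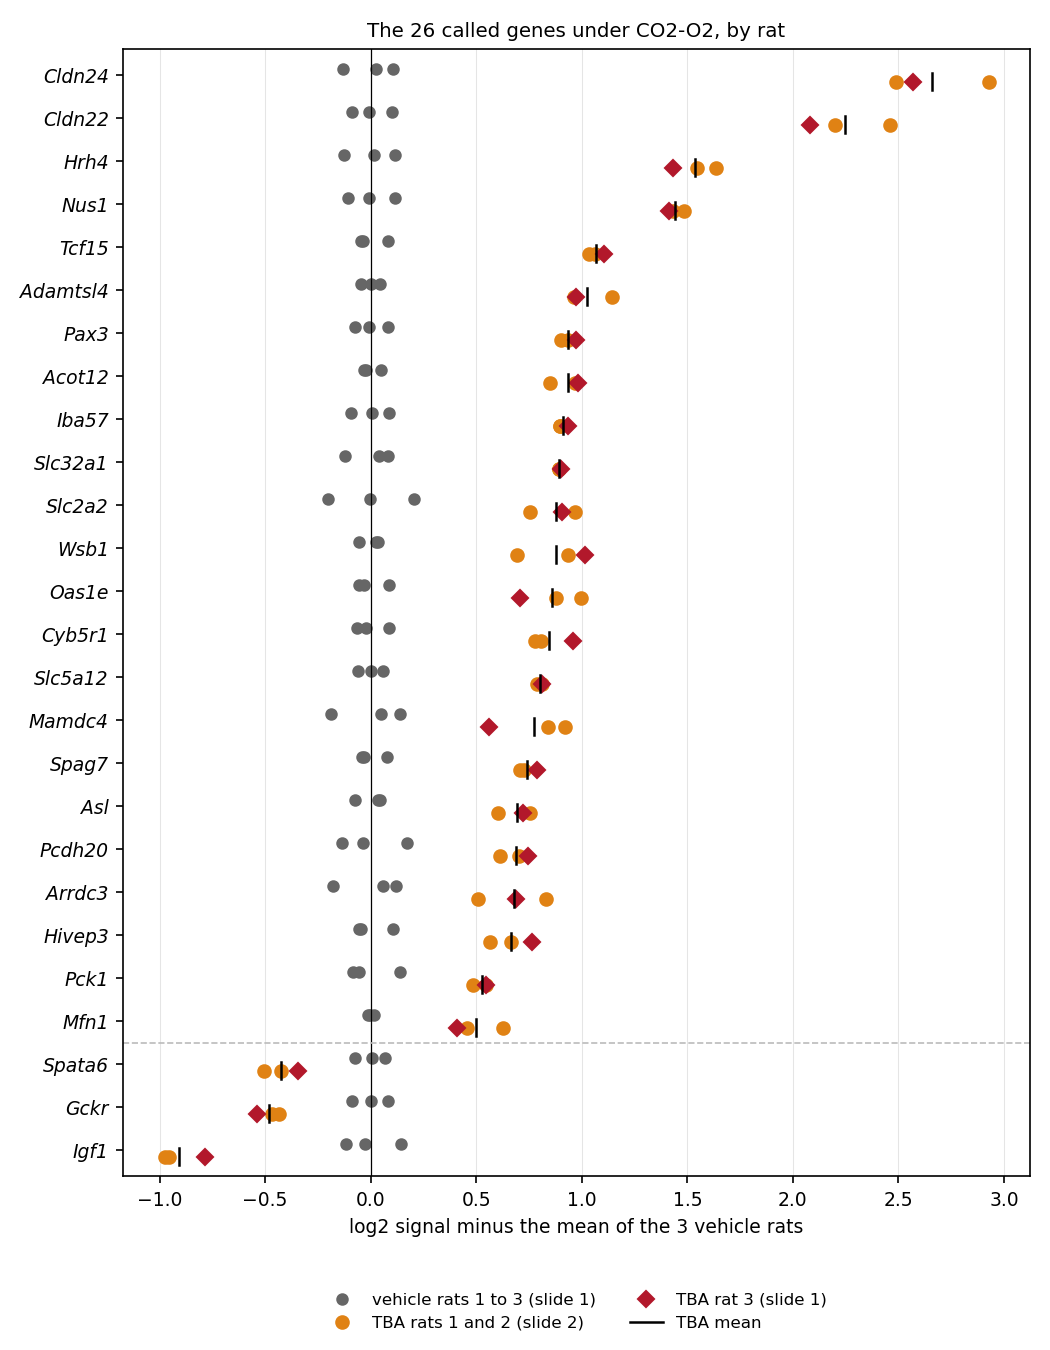
Log2 signal of each of the 26 changed genes in each rat, minus the mean of the 3 vehicle rats; grey points are vehicle rats, orange points TBA rats 1 and 2, red diamonds TBA rat 3, and black ticks the TBA means. In every row the TBA points lie apart from the vehicle points (these genes were chosen for that difference), from Cldn24 at a mean of 2.66 to Igf1 at -0.91.

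Other genes that rose have known roles in signalling, transcription and lipid or amino acid metabolism, though for several the probes disagreed. Hrh4, a histamine receptor, read 2.18, 2.28 and 2.04 in vehicle rats and 3.80, 3.71 and 3.60 in TBA rats, a difference of 1.53 ± 0.18 (limma adjusted p = 0.0174). Its second probe gave 0.50, and with the mean of its probes it gave 1.01 and did not pass (limma adjusted p = 0.0751). The call on Hrh4 held in 17 of 27 refits. Hnmt, which inactivates histamine, gave -1.22 ± 0.55 and did not pass. Of 4 tested genes of histamine signalling 1 rose, where 0.129% of all features did.

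Acot12, a cytosolic hydrolase of acetyl-CoA, read 0.02, 0.03 and 0.10 in vehicle rats and 1.02, 0.90 and 1.03 in TBA rats. The difference was 0.93 ± 0.07 (limma adjusted p = 0.00299), the lowest adjusted p among the 44. It was the 1 gene among the 26 that stayed under 0.05 in all 27 refits run with other settings or with an array left out, with differences from 0.89 to 0.98 and a highest limma adjusted p of 0.0434. Of the 11 acyl-CoA thioesterases tested Acot12 alone rose, where 0.129% of all features did, and the list's median was -0.02.

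Asl, argininosuccinate lyase, makes arginine in the proximal tubule. It read 4.86, 4.98 and 4.97 in vehicle rats and 5.69, 5.54 and 5.66 in TBA rats, a difference of 0.69 ± 0.08 (limma adjusted p = 0.0178), and its second probe gave 0.68. The call on Asl held in 17 of 27 refits. Wsb1, a substrate receptor of a ubiquitin ligase, rose by 0.88 ± 0.10 and gave 0.85 on its second probe. Adamtsl4, a matrix protein related to the ADAMTS proteases, rose by 1.03 ± 0.11, or 0.61 with normexp correction. Mfn1, which fuses mitochondrial outer membranes, rose by 0.50 ± 0.07, and Mamdc4, an apical endosomal glycoprotein, by 0.78 ± 0.11. Rises between 0.66 and 0.86 were also called in Oas1e, Pcdh20, Arrdc3 and Hivep3, whose second probe gave 0.27. Of these calls that on Arrdc3 held in 5 of 27 refits and that on Pcdh20 in 9, and those on Mfn1 and Mamdc4 held in 9 and 10.

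For several of the remaining rises the probes of a gene disagreed. Nus1, a subunit of the prenyltransferase that makes dolichol precursors for N-glycosylation, rose by 1.44 ± 0.15 on the probe used, from 2.90, 3.02 and 2.80 in vehicle rats to 4.39, 4.34 and 4.32 in TBA rats. Its 2 other probes gave 0.14 and -0.04. The enzyme's other subunit Dhdds gave 0.11 ± 0.06, Dolk, the dolichol kinase, 0.15 ± 0.06, and Alg8, a glucosyltransferase of the precursor, -0.21 ± 0.06. Nus1 alone rose among 20 genes of that pathway, whose median was -0.03, where 0.129% of all features rose. Tcf15, a transcription factor of somite development, rose by 1.07 ± 0.11 on 1 probe and gave -0.09 on another. Spag7 (0.74), Slc32a1, the vesicular GABA transporter (0.89), and Cyb5r1, a cytochrome b5 reductase (0.85), each had at least 1 other probe of opposite sign. The 4 other probes of Iba57, a factor of iron-sulphur cluster assembly, gave 0.10 to 0.22 against 0.91 on the probe used. With the mean of a gene's probes Nus1 gave 0.51, Tcf15 0.49, Spag7 0.35, Slc32a1 0.34 and Iba57 0.30, and none of the 5 passed. Cyb5r1, whose other probes gave -0.17, -0.12 and 2.59, gave 0.79 with that mean and did not pass either (limma adjusted p = 0.414). Pax3, a developmental transcription factor, rose by 0.94 ± 0.12 and had 1 probe. The probes used for Tcf15, Iba57, Spag7, Nus1, Pax3, Cyb5r1 and Hrh4 varied alike between rats. Under isoflurane, vehicle rat 1 read above the other vehicle rats in each, and TBA rat 1 below the other TBA rats. In Tcf15 these values were 6.45, 6.10 and 6.09 in vehicle rats and 6.65, 6.93 and 6.93 in TBA rats. Whether these probes measure separate transcripts was not tested. Over the 19 changed symbols with more than 1 usable probe, 21 of 27 other probes had the direction of the probe used, and 14 symbols had all probes in 1 direction.

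Only 3 genes with a symbol fell. Igf1, the insulin-like growth factor that growth hormone induces, read 3.04, 2.87 and 2.78 in vehicle rats and 1.94, 1.92 and 2.11 in TBA rats. The vehicle mean was 1.88-fold the TBA mean, a difference of -0.91 ± 0.13 (limma adjusted p = 0.0308), and its other probes gave -0.92 and -0.50. No TBA rat reached the lowest vehicle rat, and the call held in 15 of 27 refits. Of 19 genes of the growth hormone and IGF axis, Igf1 alone fell, where 0.0204% of all features did, and none rose. In this list 12 were lower and 7 higher, where 46.6% of all features were lower, and the median was -0.06. Cish, a feedback inhibitor that growth hormone induces through STAT5, gave -1.75 ± 0.55 (limma adjusted p = 0.21), with values of 0.91, 0.36 and 0.77 in vehicle rats and -1.32, -0.13 and -1.76 in TBA rats. The groups did not overlap in Cish, but its 3 TBA rats were far apart. Socs2, a second inhibitor of this kind, gave -0.55 ± 0.35, the insulin receptor substrate Irs2 -0.53 ± 0.16 (0.08 on its other probe) and Igfbp1, an IGF-binding protein, 0.64 ± 0.17. Spata6, a sperm-associated gene, fell by 0.42 (SE 0.06, limma adjusted p = 0.0391), a call that held in 7 of 27 refits, and the third, Gckr, is described with the glucose genes.

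The number of changed features depended on single arrays. All 44 kept their sign in each refit. As their groups did not overlap, neither leaving out an array nor the slide term below could turn the sign of a probe. Leaving out vehicle rat 1, 2 or 3 gave 1, 2 or 5 features called, of which 1, 1 and 4 were among the 44, and leaving out TBA rat 1 or 2 gave 1 or 3, all among the 44. Leaving out TBA rat 3, the TBA array on the vehicle slide, gave 136, of which 36 were among the 44. That refit compares TBA arrays on slide 2 with vehicle arrays on slide 1, so slide and group cannot be told apart in it. In the isoflurane groups, which lend their spread to the fit, leaving out TBA rat 3 gave 26. With all arrays kept, slide and group were partly joined. With slide as a fixed term, which rests the contrast on TBA rat 3, 75 features were called and 8 of the 44 were among them.

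A few genes of glucose production and of lactate uptake changed, and none of glutamine use. Promoters of 2 of the genes that rose, Pck1 and Slc2a2, are shown because both belong to glucose output and both hold the nuclear receptor half-site AGGTCA, in capitals (searched on both strands). The windows are the 250 bases before each gene's start in RefSeq, build GRCr8, both on the plus strand, at chr3:182348322-182348571 for Pck1 and chr2:113540120-113540369 for Slc2a2.
Pck1: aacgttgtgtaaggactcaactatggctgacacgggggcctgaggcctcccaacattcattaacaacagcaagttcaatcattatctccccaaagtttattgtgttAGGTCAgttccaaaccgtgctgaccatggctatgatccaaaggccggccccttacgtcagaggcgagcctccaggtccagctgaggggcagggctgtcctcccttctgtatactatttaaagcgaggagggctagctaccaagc
Slc2a2: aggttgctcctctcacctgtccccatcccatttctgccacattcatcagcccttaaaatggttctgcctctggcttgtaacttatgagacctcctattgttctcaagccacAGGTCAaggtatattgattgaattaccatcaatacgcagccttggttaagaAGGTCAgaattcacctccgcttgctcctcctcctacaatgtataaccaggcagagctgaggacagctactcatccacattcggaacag
The half-site begins 144 bases before the start of Pck1 and 139 and 88 bases before that of Slc2a2. It was present in 4 of the 25 changed genes with a promoter in the table, the others being Acot12 and Gckr, and in 13.7% of 27457 promoter windows of this length. The windows of Cldn22 and Cldn24 held neither it nor the E-box CACGTG, the STAT element TTCNNNGAA or the cyclic AMP element TGACGTCA. A match is a run of letters and not a measured binding site.

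Pck1, the enzyme that makes phosphoenolpyruvate from oxaloacetate, read 7.35, 7.57 and 7.38 in vehicle rats and 7.92, 7.98 and 7.98 in TBA rats, a difference of 0.53 ± 0.08 (limma adjusted p = 0.0462). Slc2a2, the glucose transporter GLUT2 of the basolateral membrane, read 3.01, 3.42 and 3.21 in vehicle rats and 4.18, 3.97 and 4.12 in TBA rats, a difference of 0.88 ± 0.12 (limma adjusted p = 0.0329). Its 2 other probes gave 0.83 and 0.70, and the second Pck1 probe 0.63. In both genes the groups stood apart. Gckr, which inhibits glucokinase, read -3.30, -3.13 and -3.21 in vehicle rats and -3.68, -3.65 and -3.75 in TBA rats, a fall of 0.48 (SE 0.07, limma adjusted p = 0.0391). Of 14 genes of gluconeogenesis 2 rose and 1 fell, where 0.129% and 0.0204% of all features did. In this list 10 were higher, where 53.4% of all features were, and the median was 0.08. G6pc1, which releases free glucose, gave 0.71 ± 0.15 (limma adjusted p = 0.105), the lactate dehydrogenase subunit Ldhb 0.32 ± 0.07, the coactivator Ppargc1a 0.30 ± 0.07 and the bisphosphatase Fbp1 0.09 ± 0.06. The calls on Pck1, Slc2a2 and Gckr were among the less stable ones and held in 6, 11 and 8 of 27 refits, and Gckr gave -0.28 with normexp correction and did not pass (limma adjusted p = 0.0935).

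Slc5a12, which carries lactate with sodium into proximal tubule cells, was the 1 changed gene among 13 markers of the S1-S2 segments (0.15% of all features). It read 1.58, 1.64 and 1.70 in vehicle rats and 2.45, 2.43 and 2.45 in TBA rats, a difference of 0.80 ± 0.12 (limma adjusted p = 0.0411), and its second probe gave 1.05. The call held in 9 of 27 refits. In 12 of the 13 markers the TBA mean was higher, against 53.4% of all features. In 10 the groups did not overlap in that direction, against 11.9% of all features. The list's median was 0.28, and 0.16, 0.21 and 0.38 in TBA rats 1 to 3. Not passing were the basolateral bicarbonate carrier Slc4a4 at 0.56 ± 0.10 (limma adjusted p = 0.0883), the neutral amino acid carrier Slc6a19 at 0.41 ± 0.08, the organic anion carrier Slc22a8 at 0.37 ± 0.09 and the endocytic receptor Cubn at 0.31 ± 0.10. Lrp2, the megalin receptor that works with Cubn and takes up filtered protein, was the exception at -0.15 ± 0.08. Among 9 markers of the S3 segment none changed and the median was 0.05, with differences from -1.19 to 0.63. In whole cortex more cells of a type and more RNA per cell cannot be told apart.

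For glutamine and ammonia, none of 10 genes changed (4 had an unadjusted limma p under 0.05 on the higher side and 1 on the lower), and 5 had groups that did not overlap on the higher side, against 11.9% of all features. Glud1, the glutamate dehydrogenase that frees ammonia, read 6.16, 6.34 and 6.28 in vehicle rats and 6.88, 6.80 and 6.75 in TBA rats, a difference of 0.55 ± 0.10 (limma adjusted p = 0.09). Its other probes gave up to 0.63 and down to 0.49. Ogdh, of the oxoglutarate dehydrogenase complex, gave 0.30 ± 0.05, and Glul, which consumes ammonia to make glutamine, -0.40 ± 0.13. The list's median was 0.17.

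**Figure D2:**
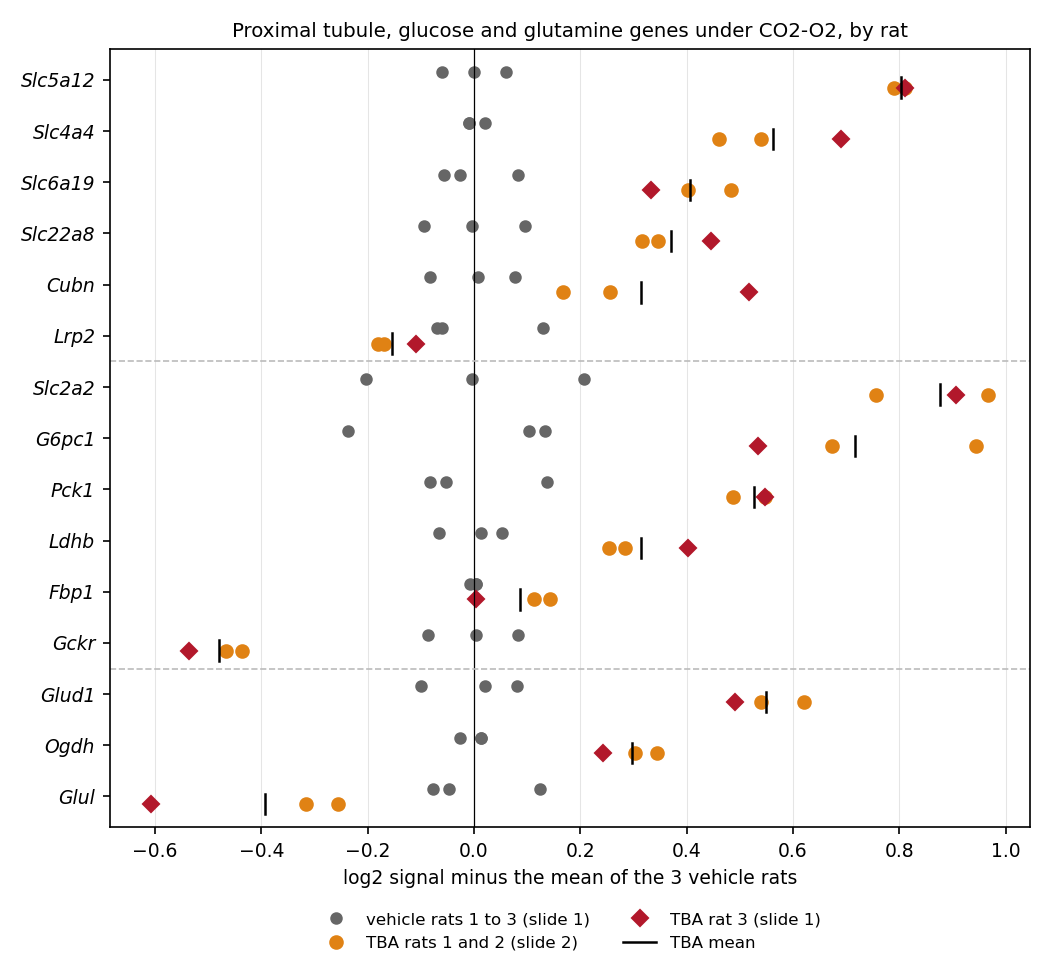
Log2 signal minus the vehicle mean in each rat for genes of proximal tubule transport (top), glucose metabolism (middle) and glutamine metabolism (bottom), with symbols as in the plot of changed genes. Slc5a12, Slc2a2, Pck1 and Gckr changed; the others did not pass, and Lrp2, Gckr and Glul lie to the left of 0.

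The alpha-2u-globulin family had the lowest median of all lists, but no member passed. All 6 had an unadjusted limma p under 0.05 on the lower side, against 5.61% of all features. Its genes are near-identical copies, so signals of single members are uncertain and counts of members are not counts of separate observations. Obp3, a member, read 0.54, 0.86 and 1.04 in vehicle rats and -2.61, -2.96 and 0.13 in TBA rats, a difference of -2.63 ± 0.90 (limma adjusted p = 0.237). All 3 TBA rats were below all vehicle rats, and TBA rat 3 was much closer to them than the other TBA rats. All 6 members tested shared this order, against 9.16% of all features, and the 4 that were well above background on all 6 arrays gave -2.78 (Mup5) to -2.22 (Mup4l1). Mup4 and Mup4l3 were well above background on 1 and 2 of the 3 TBA arrays, so the sizes of their differences, -3.02 and -2.38, rest in part on dim signals. Both passed the filter only through the vehicle group, which favours a lower TBA reading. The family median was -2.68, and -3.43, -3.79 and -0.81 in TBA rats 1 to 3. TBA rat 3 shared the vehicle slide and the other TBA rats did not, so for the size of this difference the rat and the slide cannot be told apart. Under isoflurane the 3 vehicle arrays, all on slide 2, ran from 0.04 to 2.40 in Obp3, a wider spread than in the CO2-O2 vehicle rats.

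**Figure D3:**
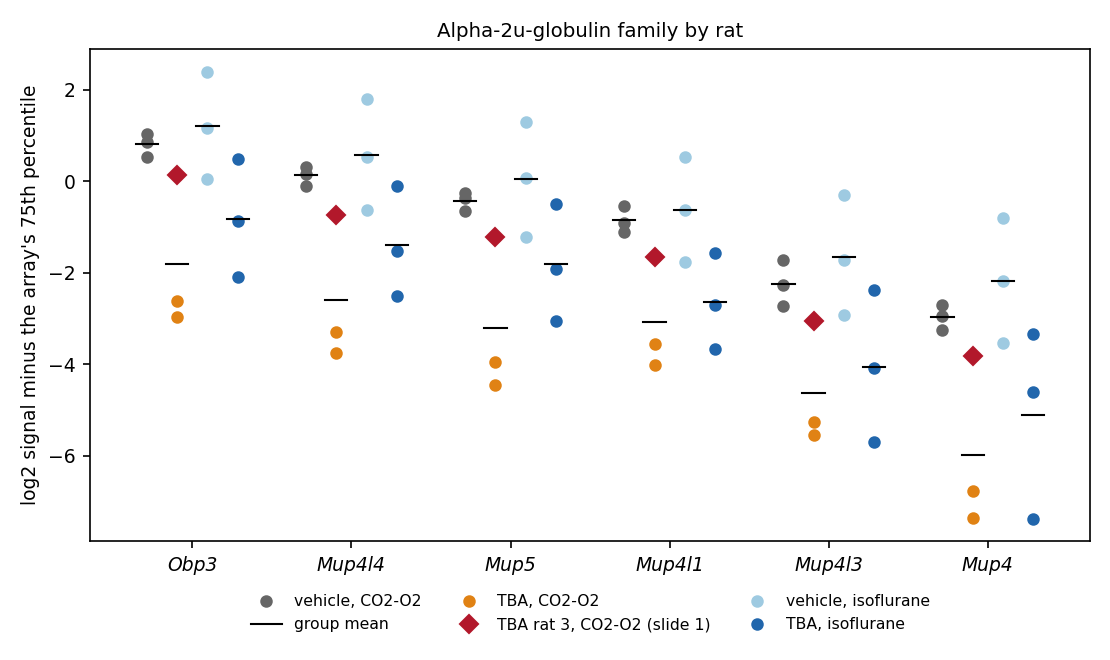
Log2 signal minus the array's 75th percentile for 6 alpha-2u-globulin genes in each of the 12 rats, with group means as black bars and TBA rat 3 under CO2-O2 as a red diamond; heights of different genes are not comparable. Under CO2-O2 the TBA points lie below the vehicle points in each gene, with TBA rat 3 nearest to them, and under isoflurane the family median difference was -2.02.

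Fatty acid oxidation and other targets of the nuclear receptor PPAR-alpha were mostly higher, and no gene changed (unadjusted limma p under 0.05 and higher in 1 mitochondrial gene, 2 peroxisomal genes and 5 others). Of 19 tested genes of mitochondrial oxidation 17 were higher (median 0.15), of 19 peroxisomal genes 14 (median 0.12), and of 13 other PPAR-alpha targets 12 (median 0.36), where 53.4% of all features were higher. The exception among the other targets was Fabp1, a fatty acid binding protein, at -1.56 ± 0.74 (limma adjusted p = 0.373), and the lowest peroxisomal difference was -0.55. Acaa1b, a peroxisomal thiolase, read 6.64, 6.87 and 6.70 in vehicle rats and 7.65, 7.34 and 7.17 in TBA rats, a difference of 0.65 ± 0.13 (limma adjusted p = 0.101). Vnn1, a pantetheinase, gave 0.68 ± 0.21, Eci1, a mitochondrial isomerase, 0.43 ± 0.17, Plin2, a lipid droplet coat protein, 0.35 ± 0.12, and Cyp4a1, a fatty acid hydroxylase, 0.12 ± 0.23.

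Genes of the angiotensin system were lower in 8 of 9, against 46.6% of all features, and none changed (1 had an unadjusted limma p under 0.05). The list's median was -0.61, but -0.10 in TBA rat 1 against -0.67 and -0.78 in TBA rats 2 and 3. Agt, angiotensinogen, read 3.71, 3.61 and 3.60 in vehicle rats and 3.15, 2.77 and 1.72 in TBA rats, a difference of -1.10 ± 0.51 (limma adjusted p = 0.368). Ace, which makes angiotensin II, gave -0.74 ± 0.23, and the peptidase Mme -0.84 ± 0.44. The TBA rats lay below the vehicle rats in Agt, Ace and Mme. Under isoflurane the list's median was 0.00.

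Of the markers of other cells in 15 lists, none changed (7 of 116 tested had an unadjusted limma p under 0.05 on the higher side and 7 on the lower). Over all features these shares were 8.77% and 5.61%, and at any p 53.4% were higher and 46.6% lower. The thick ascending limb had 9 of 11 lower (median -0.21, Umod at -0.21 ± 0.16), and fibroblasts 6 of 6 (median -0.16, Col3a1 at -0.39 ± 0.16). Intercalated cells had 9 of 9 higher (median 0.13, Rhcg at 0.30 ± 0.12), podocytes 9 of 10 (0.15), endothelium 8 of 10 (0.14) and the distal convoluted tubule 5 of 6 (0.22, with Calb1 at 0.41 ± 0.23 and Wnk4 at 0.36 ± 0.12). The summed linear signal of the S1-S2 markers, in units of the array's 75th percentile, was 1110 to 1400 in vehicle rats and 1530 to 1650 in TBA rats. That of the S3 markers was 567 to 642 and 380 to 597. That of the thick ascending limb was 829 to 932 and 761 to 836, and that of podocytes 33.2 to 42.9 and 38.1 to 46.8. The part of these shifts in the results above was not tested. In the macrophage list (median 0.02) Cd163 was not well above background on any vehicle array and was at least 1.97-fold higher in TBA rats (limma adjusted p = 0.168). Cd163 passed the filter only through the TBA group, which favours a higher TBA reading. Of 7 adrenal markers 5 were not well above background on any array, Cyp11b1 and Star among them. The skeletal muscle list, with Myh1 not well above background on any array, had a median of 0.20, led by TBA rat 1 at 0.53.

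**Figure D4:**
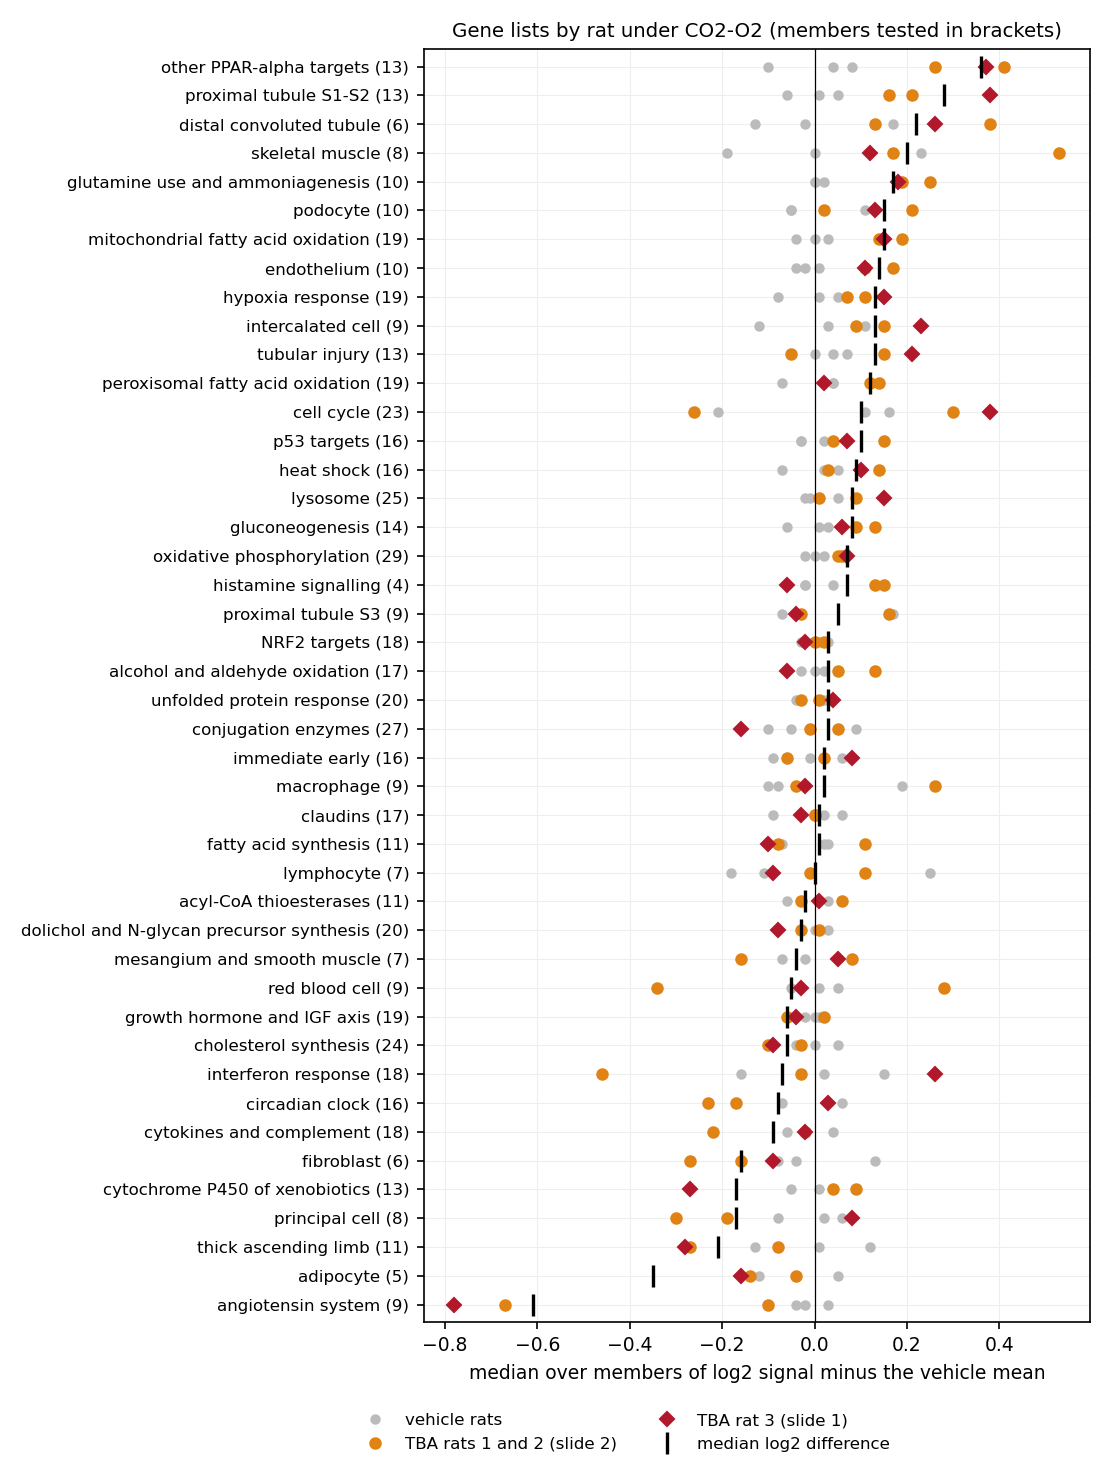
Median over the tested members of each gene list of log2 signal minus the vehicle mean, for each rat, with the median log2 difference as a black tick; the alpha-2u-globulins, at -2.68, are off this scale and the adrenal list had 2 tested members, so neither is drawn. Other PPAR-alpha targets (0.36) and S1-S2 markers (0.28) are the highest and the angiotensin system (-0.61) the lowest of those drawn.

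Of 13 tubular injury genes none changed, 1 had an unadjusted limma p under 0.05, and the median was 0.13. Havcr1, the injury marker KIM-1, gave 0.24 ± 0.52, Lcn2, which encodes NGAL, 1.05 ± 1.03, Clu, clusterin, 0.77 ± 0.26 and Spp1, osteopontin, 0.94 ± 0.42. Spp1 read 3.31, 3.01 and 3.16 in vehicle rats and 3.53, 4.86 and 3.92 in TBA rats, which did not overlap, while the other 3 genes overlapped. The sign of Havcr1 turned without vehicle rat 3 or TBA rat 2, or with slide as a fixed term, and that of Lcn2 without vehicle rat 2. Of 23 cell cycle genes 16 were higher, against 53.4% of all features (median 0.10, and -0.26 in TBA rat 1). Tyms, thymidylate synthase, gave 0.41 ± 0.10. Cyp2b1 and Cyp1a1, cytochromes that many chemicals induce, had 1 probe each, not well above background on any of the 6 arrays. Of 13 tested genes of the xenobiotic cytochrome list none changed (unadjusted limma p under 0.05 in 2 higher and 1 lower), 7 were lower and the median was -0.17. Differences in this list ran from -2.49 to 0.50. Cyp2b2 gave 0.50 ± 0.13, Cyp2e1, which oxidises small alcohols and ketones, 0.42 ± 0.18, and Cyp2s1 -0.60 ± 0.12 (limma adjusted p = 0.0989), with its 4 probes between -0.60 and 0.09.

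In the circadian clock list 7 of 16 genes were higher, none changed (unadjusted limma p under 0.05 in 3 higher and 4 lower), and the median was -0.08. Bmal1 read -0.54, -0.53 and 0.22 in vehicle rats and 1.51, 0.82 and 0.32 in TBA rats, a difference of 1.16 ± 0.30. Npas2, its partner in transcription, gave 0.87 ± 0.20, and Tef and Nr1d2, which their dimer drives, -0.55 ± 0.14 and -0.62 ± 0.19. The groups stood apart in these 4 genes, though in Bmal1 the gap was small. Of 19 hypoxia genes 14 were higher (median 0.13), with Ndrg1 at 0.79 ± 0.15 and the glucose transporter Slc2a1 at -0.41 ± 0.13. Of 29 genes of oxidative phosphorylation 25 were higher (median 0.07), of 25 lysosomal genes 20 (0.08), and of 24 cholesterol synthesis genes 16 were lower (-0.06), with the cyclase Lss at -0.70 ± 0.23. None of these or of 18 interferon response genes (median -0.07) changed, and over all features 53.4% were higher and 46.6% lower.

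Some differences were large without passing. In 243 of the 29376 features tested the groups differed at least 2-fold, did not overlap and were not called. Of the 11634 features with a symbol 92 were among these, 34 higher and 58 lower. Only 63 of the 92 were well above background on all 6 arrays, so sizes and directions among the others rest in part on dim signals. Cyp27b1, the renal enzyme that activates vitamin D, read -2.53, -1.32 and -2.40 in vehicle rats and 0.05, 0.27 and -0.70 in TBA rats, a difference of 1.96 ± 0.36 (limma adjusted p = 0.0883). P3h3, a collagen prolyl hydroxylase, gave 1.88 ± 0.50 on 1 probe and 0.37 on another, and the kininogen genes Kng1 and Kng2 gave 1.77 ± 0.93 and 1.59 ± 0.89. The higher values of Prl3d4, Or13p4 and Tac4 rested on vehicle rat 2, which lay over 3 units under the other vehicle rats in each. The olfactory receptor genes Or2n1e and Or6c3b lacked a TBA array well above background. They were at least 10.0-fold (limma adjusted p = 0.13) and 7.71-fold (limma adjusted p = 0.116) lower in TBA rats, with vehicle rat 2 close to the TBA rats. Or2n1e and Or6c3b passed the filter only through the vehicle group, which favours a lower TBA reading. Olfactory receptor genes made up 8 of the 92, and 164 of the 11634 features tested with a symbol.

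The rats killed under isoflurane, with other controls, give values for the same features that the calls under CO2-O2 did not use, although both contrasts share the fit's spread. There all vehicle arrays lay on slide 2 and all TBA arrays on slide 3, so slide and group cannot be told apart. Of the 44 features 42 had the same sign there. All 38 that rose were higher, where 53.7% of all features were, and 4 of the 6 that fell were lower, where 46.3% were. In 7 of the 44 the isoflurane contrast also passed in the same direction, and in 1 in the opposite direction, where 0.391% of all features passed. The difference was smaller in size under isoflurane in 41 of 44, with a median of 0.43 against 0.81, which choosing the 44 under CO2-O2 favours. No feature had an adjusted p under 0.05 for the difference between the gases (0.0% of features, 12.1% at an unadjusted p under 0.05, and a lowest limma adjusted p of 0.0701 among the 44).

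Cldn22 gave 1.47 ± 0.23 under isoflurane (limma adjusted p = 0.0421) and Cldn24 1.41 ± 0.27 (0.0651). The isoflurane vehicle rats read -3.19, -3.44 and -4.38 in Cldn24 and the TBA rats -1.93, -2.47 and -2.39, again without overlap. Wsb1 gave 1.11 ± 0.10, Hivep3 0.75 ± 0.08 and Spata6 -0.45 ± 0.06, each passing there too. Acot12 gave 0.24 ± 0.07 and Igf1 -0.13 ± 0.13, neither passing, and Gckr gave 0.25 ± 0.07 with the opposite sign. For Acot12 the difference between the gases was 0.69 ± 0.10 (limma adjusted p = 0.113), for Gckr -0.73 ± 0.10 (0.113) and for Igf1 -0.78 ± 0.18 (0.233). Acaa1b, Glud1, Bmal1 and Ndrg1, which did not pass under CO2-O2, did so under isoflurane, at 1.06, 0.71, 1.92 and 0.98. Ppargc1a also passed there, at -0.44 (limma adjusted p = 0.0428), with the opposite sign to its 0.30 under CO2-O2, and the difference between the gases was 0.74 ± 0.10 (limma adjusted p = 0.113).

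**Figure D5:**
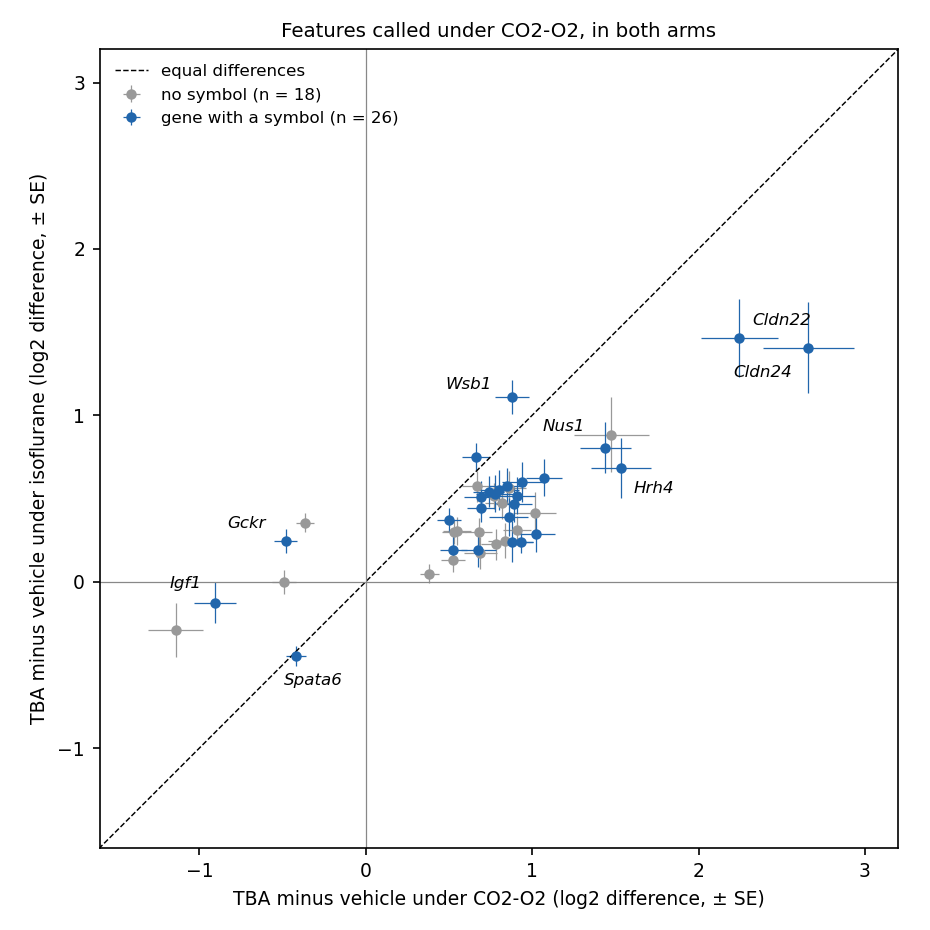
TBA minus vehicle differences (log2, ± SE) of the 44 features changed under CO2-O2 (x axis) against the same features under isoflurane (y axis), with symbols in blue and features without a symbol in grey. Most points lie between the x axis and the dashed line of equal differences. Wsb1 and Hivep3 lie above that line. Gckr and 1 feature without a symbol, both lower under CO2-O2, lie on the other side of 0.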

How the data were processed

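The deposited scanner files give an intensity for each spot. They were made with Agilent Feature Extraction 10.7, per the submitters' processing notes; the processed intensity has background removed within its array and is not scaled across arrays, per the file headers. The deposited value table holds a ratio whose scale the authors do not state; set against the scanner values, it is the linear processed signal over the array's 75th percentile, with column medians of 0.101 to 0.107. Each of its 12 columns fitted the scanner values of a differently numbered rat in its own group, and it served only as an alternative.

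Probe accessions were matched to RefSeq names (GRCr8 table): 27460 of 61657 probes had 1 symbol, 0 several and 34197 none. Log2 processed signal minus the array's 75th percentile was analysed for probes that passed background on every array of the vehicle or the TBA group (39914 probes), outlier spots left out, and the probe with the highest mean was taken per symbol. One mean per group was fitted on all 12 arrays with limma 3.58.1 in R 4.3.3 (lmFit, eBayes, 8 residual and 1.92 prior degrees of freedom, no covariate). No 2 arrays were identical. The labels give no litter or cage, and p-values measure the spread between rats; the number of arrays limits the precision. The fit was tested on simulated data.

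The genes named were a preset group (Havcr1, Lcn2, Clu, Spp1, Mki67, Lrp2, Cyp2b1, Cyp1a1, Cyp4a1, Pck1 and Agt), every changed gene with a symbol, the 8 highest and 8 lowest uncalled differences of at least 2-fold whose groups did not overlap, and up to 4 members per list; fewer could be named, and some genes of the rule are not reported here. Mki67 had no matched probe. Wwc2, a neighbour of the claudin pair, and Fabp1 were added after values were seen. The comparison, the rule and the lists were chosen with earlier results of these data known, and 3 alpha-2u-globulin genes (Mup4l1, Mup4l3 and Mup4l4) were added under their newer symbols. A bound compares the mean of the brighter group with the dim arrays, each raised to its lowest signal well above background where the probe read less. Alternatives were normexp on the median signal (offset 50, since the files lack the mean), quantile or median scaling, the value table, other filters on dim probes, averaging the probes of a gene, slide or scan day as a term, slide as a random block (statmod 1.5.0), a replicate block, the 6 arrays alone, trend and robust spread, array weights, a fold of 2, and each array left out.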

Additional observations from a re-analysis of the deposited data

How the results depend on the processing

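The 44 changed features (0.15% of those tested) kept their sign in every alternative. Their lack of overlap fixed the sign in advance for left-out arrays and for slide or scan day terms. How many features passed varied. The share was 0.0306% (9 features) at a fold of at least 2, 0.255% (75) with normexp background correction, 0.0196% (9) with no filter on dim probes, 0.0647% (19) after averaging a gene's probes, 0.255% (75) with slide and also with scan day as a fixed term, 0.0579% (17) with only the 6 arrays compared, 0.364% with trend and robust spread and 0.541% (159) with array weights. Leaving out one array at a time gave 0.00337% to 0.445% (1 to 136 features), the most without TBA rat 3, where slide and group coincided. When the array belonged to the comparison, groups did not overlap in 29.4% to 39.8% of features, against 21.1% with all 6. Other scalings and filters and a random slide block gave 31 to 50 features. Replicate numbers did not pair the rats (correlations of deviations 0.101, 0.015 and 0.019), and with the replicate block 0.0102% (3 features) passed, Cldn24, Cldn22 and Acot12. Among named genes 2 changed sign, neither called. Havcr1 gave -0.13 with slide or scan day as a fixed term and -0.23 to 0.53 with one array left out, lowest without TBA rat 2 and also below 0 (-0.10) without vehicle rat 3. Lcn2 gave -0.05 to 1.62 with one array left out, lowest without vehicle rat 2. Fewer arrays or features lower some counts by construction, and other causes were not tested. Slide 1 alone holds 1 TBA array and gave values with no test. One low array can set a difference, as vehicle rat 2 did in Lcn2.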
